A study of Mus musculus with 12 samples.

Results

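The NAIP-NLRC4 inflammasome was described in the mouse jejunum through 10 listed genes, namely the sensors Naip1, Naip2, Naip5 and Naip6, the scaffold Nlrc4, the adaptor Pycard, the inflammatory caspases Casp1 and Casp4, and the effectors Gsdmd and Il18. Each gene was looked up in the annotation table of the array. It gave 1 probe set for each of 9 genes, out of 19938 distinct genes named there and 35556 probe sets on the array, and these 9 were tested. No probe set there carried the name Naip1. A single probe set is named Naip1 only in the study's list of changed probe sets, and because that list was picked from these arrays its values are given without a test. Casp1 is in that list too, but its probe set was found through the annotation table and was tested. The members were chosen with earlier results of these data known, so their tests are not independent of those results.

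The jejunum was taken from 8-week-old male mice of the inbred strains A/J and C57BL/6J (B6) on day 7 after surgery. There were 4 groups of 3 arrays: A/J mice with common bile duct ligation (CBDL), sham-operated A/J mice, B6 mice with CBDL, and sham-operated B6 mice. CBDL stops bile from reaching the gut, a state called cholestasis. In sham mice the abdomen was opened and closed again with the bile duct left untouched. Values are log2 signals after robust multi-array averaging (RMA), where a difference of 1 is a doubling. The samples were bulk jejunal tissue, so fewer cells of a type and less RNA per cell cannot be told apart.

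NAIP proteins are cytosolic receptors for bacterial protein. In the mouse, NAIP5 and NAIP6 bind flagellin, NAIP1 binds the needle protein of type III secretion systems, and NAIP2 binds the inner rod protein. A NAIP bound to its ligand joins with NLRC4 into a wheel-shaped complex that activates caspase-1, directly or through the adaptor ASC, the product of Pycard. Active caspase-1 cleaves pro-IL-18 and gasdermin D, whose fragment forms pores in the plasma membrane. Casp4 encodes the mouse caspase that binds cytosolic lipopolysaccharide and also cleaves gasdermin D. In the intestinal epithelium the pathway is known for the expulsion of infected enterocytes. A/J mice carry a variant Naip5 allele, known for allowing growth of Legionella pneumophila in macrophages.

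The Naip genes are paralogs that lie in a cluster on chromosome 13. Of the 6 pairs of their RefSeq promoter windows (build GRCm38.p6, minus strand), Naip2 and Naip5 were the most alike, and the 83 upstream bases over which they aligned are shown here. They are chr13:100202125-100202207, positions -85 to -3 from the Naip2 start, and chr13:100247346-100247428, positions -92 to -10 from the Naip5 start. Capitals mark the 6 positions that differ.
Naip2: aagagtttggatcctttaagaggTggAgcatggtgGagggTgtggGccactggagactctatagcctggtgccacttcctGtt
Naip5: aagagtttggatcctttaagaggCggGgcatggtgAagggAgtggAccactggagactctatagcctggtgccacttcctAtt

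The pair matched at 77 of 83 aligned bases, or 92.8%. The other 5 pairs of Naip windows aligned over shorter or less alike stretches, with 66.7% to 76.7% of 27 to 109 aligned columns identical. Naip1, at chr13:100452908-100452994 (minus strand, positions -130 to -44 from its start), shares an 11-base stretch with Naip2 and Naip5, shown here in capitals.
Naip1: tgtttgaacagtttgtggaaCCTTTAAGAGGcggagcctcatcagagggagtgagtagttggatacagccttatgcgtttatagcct

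This stretch was in 30 of all 32851 RefSeq promoter windows on either strand, or 0.0913%. It was not in the Naip6 window, whose last 85 bases before the start, chr13:100316617-100316701 (minus strand), are shown for contrast with no position marked.
Naip6: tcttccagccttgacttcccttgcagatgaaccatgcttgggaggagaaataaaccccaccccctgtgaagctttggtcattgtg

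Promoter windows, from 250 bases before to 50 bases after a start, were given for 9 of the 10 genes, with 10 windows in all. The interferon-gamma activated site TTCNNNGAA was in 0 of the 10 windows on either strand, against 8.30% of all windows. The core of the interferon-stimulated response element, a pair of GAAA copies with 2 free bases between them, was in 0 of 10 on either strand, against 3.44%. TATAAA was in 3 of 10 on either strand, those of Il18, Naip1 and Naip5, against 13.6%. The strands were not separated, so a match need not read TATAAA in the direction of the gene. A match of letters is a description of these windows only.

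The RefSeq mRNAs listed for each member probe set belonged to the gene it is named for, except that 1 of the 2 mRNAs listed for the Naip6 probe set is in no current gene. Probe sequences were not examined here. Signals of the 4 Naip probe sets may therefore hold RNA of more than 1 Naip gene, and bases that differ between A/J and B6 under the probes were not examined either. Differences were tested with limma over all probe sets and arrays, and called where p, adjusted by the Benjamini-Hochberg method, was under 0.05. Every comparison between 2 groups shares arrays with others: both A/J CBDL comparisons, for example, use the same 3 A/J CBDL arrays.

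The arrays had medians of 5.36 to 5.51, and of all arrays A/J sham replicate 1 was the least like the rest (mean r 0.970). Markers of the labelled tissue were bright. The mean of 10 enterocyte markers was 12.22 to 12.26 in A/J CBDL and 12.30 to 12.40 in A/J sham arrays, and 12.15 to 12.25 in B6 CBDL and 12.29 to 12.34 in B6 sham arrays. Markers of hepatocytes, 9 of 10 measured, were not alike between the groups: their mean was 9.74 to 10.36 in A/J CBDL, 5.71 to 6.53 in A/J sham, 9.95 to 10.20 in B6 CBDL and 7.68 to 9.85 in B6 sham arrays. Markers of monocytes and macrophages, cells that also carry this inflammasome, averaged 6.29 to 6.51 in A/J CBDL, 6.15 to 6.63 in A/J sham, 6.30 to 6.39 in B6 CBDL and 6.46 to 6.50 in B6 sham arrays. Neutrophil markers were dim, with means of 3.96 to 4.33 over all arrays.

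**Figure D1:**
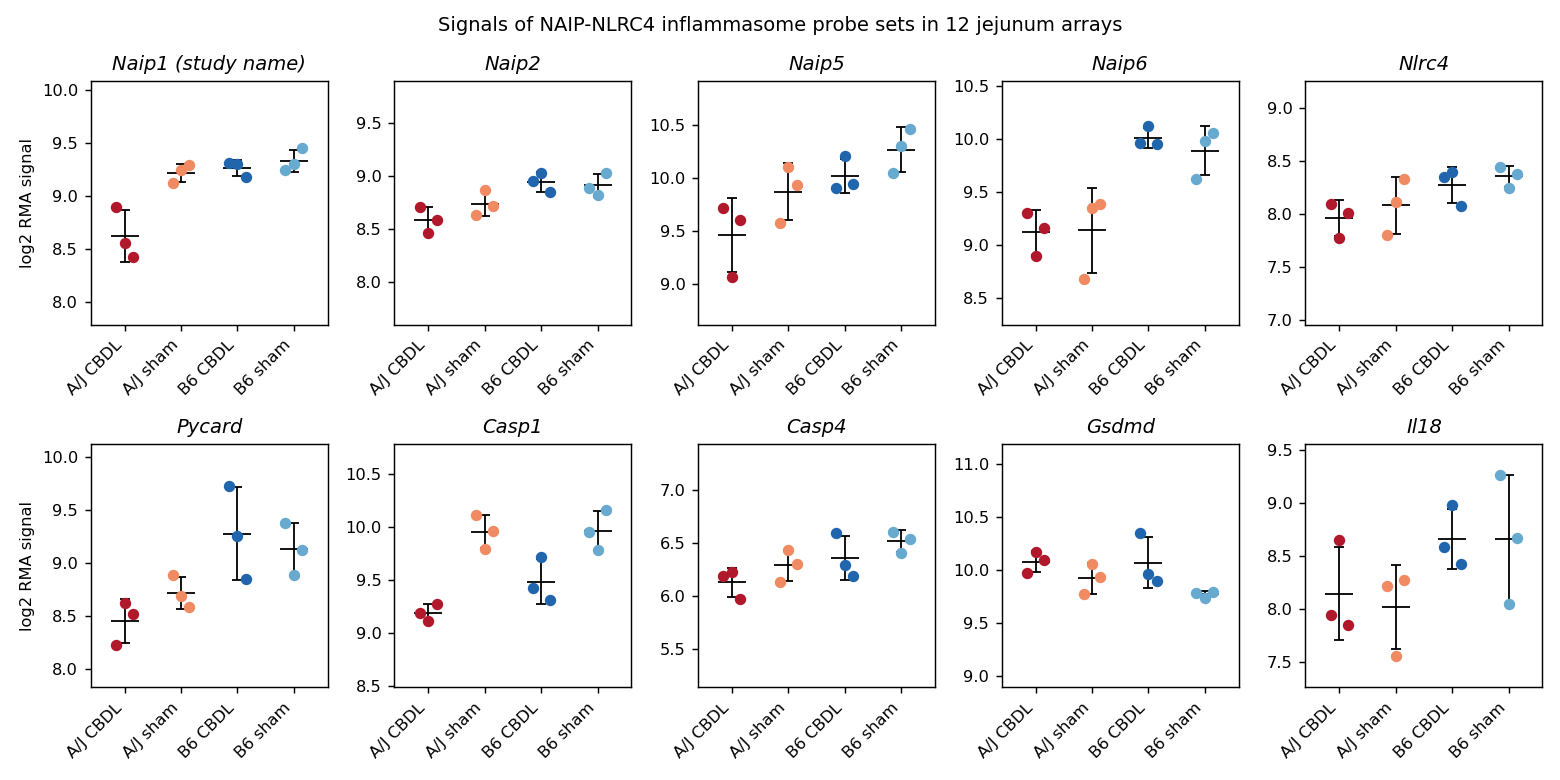
Log2 RMA signal (vertical axis, the same span in every panel) of the 10 probe sets in A/J CBDL, A/J sham, B6 CBDL and B6 sham jejunum. Points are arrays, and bars are the mean and SD of 3 arrays; Casp1 lies lower in every CBDL array than in every sham array, and Naip6 lower in every A/J array than in every B6 array.

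Among the sensors, Naip6 differed between the strains. Its log2 signal was 9.31, 8.90 and 9.16 in A/J CBDL mice, against 9.97, 10.12 and 9.96 in B6 CBDL mice. It was 8.68, 9.35 and 9.39 in A/J sham mice, against 9.63, 9.99 and 10.06 in B6 sham mice. No A/J array reached the lowest B6 array. Such complete separation, every A/J array below every B6 array, was seen for 2.22% of all probe sets and for 1 of the 9 members, Naip6.

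Averaged over both operations, Naip6 was lower in A/J by a log2 difference of -0.82 (SE 0.14, adjusted p = 0.00602, limma), or 1.77-fold. The difference was -0.89 (SE 0.19, adjusted p = 0.0450) between A/J CBDL and B6 CBDL and -0.75 (SE 0.19, adjusted p = 0.0894) between A/J sham and B6 sham, where it missed the threshold. A/J sham replicate 1 was the lowest array of all, and without it the sham difference was -0.52 and the averaged difference -0.71. The call within CBDL mice was lost without any 1 of the 3 A/J CBDL or 3 B6 CBDL arrays, A/J sham replicate 2, or B6 sham replicates 2 or 3 (adjusted p = 0.0575 to 0.172), whereas the averaged call was made in all 19 alternatives. The hepatocyte marker ranges given above overlapped between A/J CBDL and B6 CBDL mice and did not overlap between A/J sham and B6 sham mice, and their part in the Naip6 differences was not tested. CBDL minus sham for Naip6 was -0.02 (SE 0.19) in A/J and 0.12 (SE 0.19) in B6, and the interaction of strain with CBDL was -0.14 (SE 0.27, adjusted p = 0.950). In mean level, A/J CBDL (9.12 ± 0.21) and A/J sham (9.14 ± 0.40) overlapped at the low end, and B6 CBDL (10.02 ± 0.09) and B6 sham (9.89 ± 0.23) overlapped at the high end (SD, n = 3 each).

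Naip5, the flagellin sensor with a variant allele in A/J, was not called in any comparison. Its signal was 9.72, 9.07 and 9.61 in A/J CBDL mice, against 9.91, 10.20 and 9.94 in B6 CBDL mice. It was 9.58, 10.10 and 9.93 in A/J sham mice, against 10.04, 10.30 and 10.46 in B6 sham mice. The CBDL groups of the strains did not overlap, and the sham groups did. The averaged A/J minus B6 difference was -0.47 (SE 0.14, adjusted p = 0.0757, limma), with -0.55 (SE 0.19, adjusted p = 0.215) in CBDL and -0.40 (SE 0.19, adjusted p = 0.356) in sham mice. CBDL minus sham was -0.41 (SE 0.19, adjusted p = 0.370) in A/J and -0.25 (SE 0.19, adjusted p = 0.877) in B6. Without A/J CBDL replicate 2, the lowest array, the A/J value was -0.21 and the strain difference in CBDL mice -0.36.

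Naip2, the sensor of the rod protein, had signals of 8.71, 8.47 and 8.59 in A/J CBDL mice, against 8.96, 9.03 and 8.85 in B6 CBDL mice. In A/J sham mice they were 8.64, 8.87 and 8.72, against 8.89, 8.82 and 9.03 in B6 sham mice. As for Naip5, only the CBDL groups of the strains stood apart. The averaged A/J minus B6 difference was -0.26 (SE 0.07, adjusted p = 0.0646, limma), and in CBDL mice it was -0.36 (SE 0.10, adjusted p = 0.128). The Naip2 and Naip5 strain differences passed the threshold when only probe sets with a gene name were tested (adjusted p = 0.0412 and 0.0362).

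The probe set that the study names Naip1, the needle protein sensor, had signals of 8.89, 8.55 and 8.42 in A/J CBDL mice, against 9.12, 9.24 and 9.29 in A/J sham mice. It had 9.31, 9.30 and 9.17 in B6 CBDL mice, against 9.24, 9.29 and 9.45 in B6 sham mice. All 3 A/J CBDL arrays lay below the other 9 arrays. Of all probe sets, 9.07% had every A/J CBDL array below every A/J sham array, and 11.3% below every B6 CBDL array. The share below all 9 arrays was not counted. The log2 difference of CBDL from sham was -0.59 (SE 0.12) in A/J and -0.07 (SE 0.12) in B6. Since this probe set entered through a list chosen on these arrays, the values are a description.

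Nlrc4, the shared scaffold, was not called in any comparison of the unweighted arrays. Its 6 A/J arrays ran from 7.77 to 8.33 with a median of 8.05, against 8.07 to 8.44 with a median of 8.36 in the 6 B6 arrays, and the ranges overlapped. The averaged A/J minus B6 difference was -0.29 (SE 0.10, adjusted p = 0.144, limma), and with array weights it passed the threshold (adjusted p = 0.0469).

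Pycard, the ASC adaptor, was the other member that differed between the strains. Its signal was 8.22, 8.62 and 8.51 in A/J CBDL mice, against 9.72, 9.25 and 8.85 in B6 CBDL mice. It was 8.88, 8.69 and 8.58 in A/J sham mice, against 9.37, 8.89 and 9.12 in B6 sham mice. The strains did not overlap within either operation, and the highest B6 array was B6 CBDL replicate 1. The averaged difference was -0.62 (SE 0.15, adjusted p = 0.0379, limma), a 1.53-fold lower signal in A/J.

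Within CBDL mice the Pycard difference was -0.83 (SE 0.21, adjusted p = 0.0817) and within sham mice -0.41 (SE 0.21, adjusted p = 0.378). The interaction was -0.41 (SE 0.29, adjusted p = 0.836), so the strain difference was not shown to depend on the operation. The averaged call was close to the threshold and was lost in 11 of 19 alternatives, including any without 1 of the 3 A/J CBDL arrays, A/J sham replicates 2 or 3, B6 CBDL replicates 1 or 2, or B6 sham replicates 1 or 3 (adjusted p = 0.0535 to 0.0913). Marker lists differed between the strains within CBDL mice as well. Smooth muscle markers, 8 of 8 measured, averaged 8.04 to 8.72 in A/J CBDL and 7.14 to 7.77 in B6 CBDL arrays, and B and plasma cell markers, 7 of 8 measured, averaged 6.16 to 6.42 in A/J CBDL and 5.65 to 5.92 in B6 CBDL arrays, with no overlap in either list. T and NK cell markers, 10 of 10 measured, averaged 5.99 to 6.02 in A/J CBDL and 5.86 to 6.01 in B6 CBDL arrays, which overlapped, and 6.03 to 6.24 in A/J sham and 6.37 to 6.53 in B6 sham arrays, which did not. The part of these cells in the Naip6 and Pycard differences was not tested.

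Read over the set, 2 of the 9 tested members were called for strain averaged over both operations, both lower in A/J, beside 4.63% of all probe sets called in either direction. At an unadjusted p under 0.05 there were 7 of 9, beside 19.9% of all. The log2 difference lay below 0 for 8 of 9, Gsdmd being the exception, and the median was -0.29, beside 0.01 over all probe sets. Within CBDL mice 1 of 9 was called (1.78% of all) and the median was -0.36. Within sham mice limma called 0 of 9 (1.87% of all), with 1 at an unadjusted p under 0.05 (15.4% of all) and a median of -0.27. Every A/J CBDL array lay below every B6 CBDL array for 5 of 9 members, namely Naip2, Naip5, Naip6, Pycard and Casp1, beside 11.3% of all probe sets. In sham mice this held for 2 of 9, Naip6 and Pycard, beside 9.53%. The members were not independent of each other. Pearson's r over the 12 arrays was 0.882 for Naip2 with Naip5, 0.866 for Naip2 with Naip6 and 0.803 for Naip5 with Naip6. Nlrc4 had r of 0.803 to 0.827 with these Naip probe sets, and Gsdmd had -0.453 to -0.105. The counts therefore do not stand for 9 separate observations. Markers of other cells also differed by strain over both operations: 2 of 10 T and NK cell markers, 1 of 7 Paneth and goblet cell markers and 3 of 9 hepatocyte markers were called lower in A/J, and 1 of 7 B and plasma cell markers higher. Of 10 enterocyte and 10 macrophage markers 0 were called by limma, with medians of 0.02 and -0.04. The part of these cells in the strain differences was not tested.

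**Figure D2:**
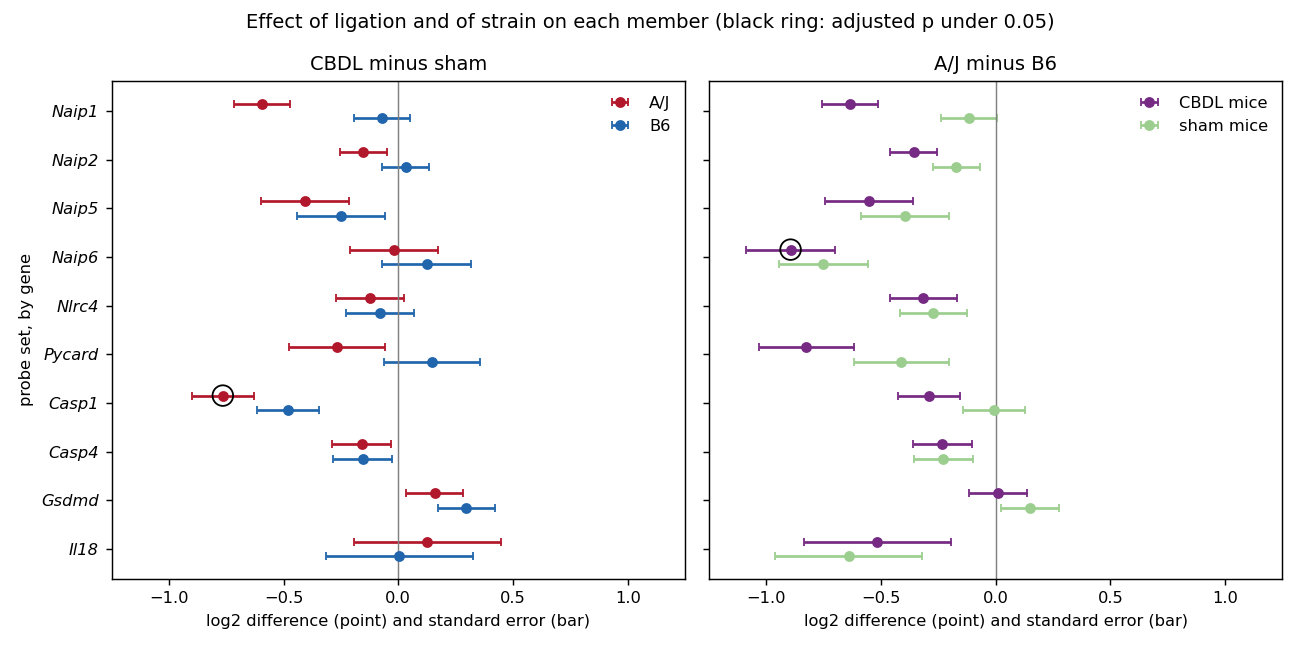
Log2 difference (horizontal axis) with its standard error for each probe set, CBDL minus sham on the left (A/J above B6) and A/J minus B6 on the right (CBDL mice above sham mice). Black rings mark an adjusted p under 0.05, which in these 4 comparisons were Casp1 in A/J and Naip6 in CBDL mice; Naip1 was not tested.

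The only tested member called for ligation was Casp1, the caspase that the inflammasome activates. Its signal was 9.20, 9.12 and 9.27 in A/J CBDL mice, against 10.12, 9.80 and 9.97 in A/J sham mice. It was 9.43, 9.72 and 9.31 in B6 CBDL mice, against 9.95, 9.79 and 10.16 in B6 sham mice. Every CBDL array lay below every sham array, a separation seen for 0.568% of all probe sets and for no other tested member.

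Averaged over both strains, Casp1 fell by 0.62 on the log2 scale (SE 0.10, adjusted p = 0.0106, limma), or 1.54-fold. In A/J it fell by 0.76 (SE 0.14, adjusted p = 0.0289), or 1.70-fold. In B6 the difference was -0.48 (SE 0.14, adjusted p = 0.308). The interaction was -0.28 (SE 0.19, adjusted p = 0.827), and a strain difference in the response was thus not shown. By mean level A/J CBDL (9.20 ± 0.08) was lowest and B6 CBDL (9.49 ± 0.21) next, with no overlap but an uncalled difference of -0.29 (SE 0.14, adjusted p = 0.378), while A/J sham (9.96 ± 0.16) and B6 sham (9.97 ± 0.19) overlapped (SD, n = 3 each). The averaged call was made in all 19 alternatives. The A/J call was lost with the 6 A/J arrays alone (adjusted p = 0.0651) and without any 1 of the A/J CBDL arrays or of A/J sham replicates 1 and 2 (adjusted p = 0.0613 to 0.116).

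Markers of other cells moved with the same comparison, which called 1.74% of all probe sets. Of the 9 measured hepatocyte markers 8 rose with CBDL over both strains, among them Alb by 3.27 (SE 0.49, adjusted p = 0.00950, limma), and the ranges given above did not overlap between CBDL and sham in either strain. Enterocyte markers had a slightly lower mean in every CBDL array than in every sham array of both strains, and 1 of 10, the lactase gene Lct, fell by 0.46 (SE 0.09, adjusted p = 0.0303). The T and NK cell marker mean, at most 6.02 in a CBDL array and at least 6.03 in a sham array, was likewise lower in every CBDL array than in every sham array, and 1 of its 10 genes was called, granzyme B (Gzmb), which fell by 0.78 (SE 0.13, adjusted p = 0.0146). Smooth muscle markers averaged 8.04 to 8.72 in A/J CBDL and 6.97 to 8.95 in A/J sham arrays, which overlapped, and 7.14 to 7.77 in B6 CBDL and 8.35 to 8.91 in B6 sham arrays, which did not. Their median CBDL difference was 0.26 in A/J and -1.37 in B6, and 0 of 8 were called by limma in either strain. The part of these in the Casp1 difference was not tested.

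The effectors downstream of Casp1 did not pass the test. Gsdmd, which encodes the pore-forming gasdermin D, had signals of 9.97, 10.17 and 10.10 in A/J CBDL mice, against 9.77, 10.06 and 9.93 in A/J sham mice. It had 10.35, 9.96 and 9.90 in B6 CBDL mice, against 9.79, 9.74 and 9.80 in B6 sham mice. Only the B6 groups stood apart, with B6 CBDL replicate 1 the highest array. Every B6 CBDL array lay above every B6 sham array for 1 of 9 members, Gsdmd, beside 7.89% of all probe sets. The averaged CBDL difference was 0.23 (SE 0.09, adjusted p = 0.268, limma), opposite in sign to that of Casp1, and it was 0.16 (SE 0.13, adjusted p = 0.609) in A/J and 0.30 (SE 0.13, adjusted p = 0.605) in B6. Without B6 CBDL replicate 1 the B6 difference was 0.16.

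Il18, the cytokine precursor, had the widest standard errors of the 9 tested members. Its signals were 7.94, 8.64 and 7.84 in A/J CBDL mice, against 8.22, 7.56 and 8.28 in A/J sham mice. They were 8.58, 8.97 and 8.43 in B6 CBDL mice, against 9.26, 8.04 and 8.67 in B6 sham mice. CBDL and sham overlapped in both strains, and the SD within a group reached 0.61 in B6 sham mice. CBDL minus sham was 0.13 (SE 0.32) in A/J and 0.00 (SE 0.32) in B6, and A/J minus B6 averaged -0.58 (SE 0.23, adjusted p = 0.184, limma). Casp4 had signals of 5.97 to 6.43 in A/J and 6.19 to 6.61 in B6, and it was not called in any comparison. Its averaged A/J minus B6 difference was -0.23 (SE 0.09, adjusted p = 0.186).

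Over the set, CBDL minus sham averaged over strains called 1 of 9 members, beside 1.74% of all probe sets, with 3 at an unadjusted p under 0.05 (14.1% of all) and a median of -0.06. In A/J 1 of 9 was called (0.818% of all) and the median was -0.15, with 7 of 9 below 0. In B6 limma called 0 of 9 (0.0534% of all), with 2 at an unadjusted p under 0.05 (7.64% of all), and 4 of 9 lay below 0. The interaction called 0 of 9 (0.0366% of all), also 0 at an unadjusted p under 0.05 (6.88% of all).

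Other genes of the pathway were read from lists chosen with earlier results of these data known. Of 8 measured inflammasome sensors and adaptors outside the NAIP-NLRC4 set, 0 were called for CBDL in either strain. Of all probe sets, 0.818% were called for CBDL in A/J and 0.0534% in B6. Averaged over both operations, Aim2 and Nlrp9b were called for strain, beside 4.63% of all probe sets. Aim2, the sensor of cytosolic DNA, was 6.38, 6.39 and 6.25 in A/J CBDL mice, against 5.26, 4.85 and 4.80 in B6 CBDL mice. It was 6.08, 6.51 and 6.83 in A/J sham mice, against 4.83, 5.02 and 5.09 in B6 sham mice. Every A/J array lay above every B6 array, as for 1.26% of all probe sets. Aim2 was higher in A/J by 1.43 on average (SE 0.13, adjusted p = 9.26e-05, limma), the opposite direction to Naip6 and Pycard. Nlrp9b, known in the mouse gut as an epithelial sensor of rotavirus RNA, was lower in A/J by an averaged difference of -1.34 (SE 0.31, adjusted p = 0.0333), and its A/J sham arrays spread widely at 4.24, 5.98 and 6.25. The median over the 8 genes for strain was 0.00.

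In the IL-1 family and its receptors, 1 of 9 measured genes was called for CBDL, over both strains and in A/J. These comparisons called 1.74% and 0.818% of all probe sets. Il33, an alarmin cytokine of barrier tissues, was 6.97, 6.30 and 6.62 in A/J CBDL mice, against 7.53, 7.80 and 7.75 in A/J sham mice. It was 7.15, 7.08 and 6.67 in B6 CBDL mice, against 7.74, 7.84 and 8.20 in B6 sham mice. Like Casp1, and 0.568% of all probe sets, it was lower in every CBDL array than in every sham array. Il33 fell by 1.01 over both strains (SE 0.13, adjusted p = 0.00495, limma) and by 1.07 in A/J (SE 0.19, adjusted p = 0.0299). The difference was -0.96 in B6 (SE 0.19, adjusted p = 0.117). The hepatocyte and enterocyte marker ranges given above moved with this comparison too, and their part in it was not tested.

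Interferon gamma induces guanylate-binding proteins and immunity-related GTPases, which act on intracellular bacteria. Of 9 measured genes of this axis 1 was called for CBDL over both strains, beside 1.74% of all probe sets. This was Gbp3, a guanylate-binding protein, which fell by 0.62 (SE 0.12, adjusted p = 0.0350, limma). Irgm1, an immunity-related GTPase, was 6.16, 6.17 and 5.98 in A/J CBDL mice, against 7.03, 7.22 and 7.10 in A/J sham mice. These groups did not overlap, as for 9.07% of all probe sets in this direction. The Irgm1 difference of -1.01 (SE 0.22, adjusted p = 0.0662, limma) missed the threshold. The median over the list was -0.21 for CBDL over both strains, beside -0.01 over all probe sets. The averaged strain comparison called 0 of 9, beside 4.63% of all.

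Among 5 other measured caspases, 0 were called for CBDL in A/J, in B6 or over both strains. Of all probe sets these comparisons called 0.818%, 0.0534% and 1.74%. Averaged over both operations, 1 caspase was called for strain, beside 4.63% of all. Casp9, the initiator of the mitochondrial pathway of apoptosis, was higher in A/J by 0.28 on average (SE 0.06, adjusted p = 0.0267, limma). Among 8 measured gasdermin and membrane rupture genes 0 were called in any comparison, where 0.0366% to 4.63% of all probe sets were called. Gsdmc2, a gasdermin C gene with close paralogs, spread widely in A/J, at 9.15, 6.23 and 7.09 in CBDL mice, against 8.75, 10.59 and 8.23 in sham mice. In B6 it was 6.10, 5.58 and 5.94 in CBDL mice, against 6.36, 7.88 and 7.58 in sham mice. The B6 groups did not overlap, as for 7.62% of all probe sets in this direction. The averaged A/J minus B6 difference of Gsdmc2 was 1.77 (SE 0.53, adjusted p = 0.0863, limma). Gsdmc4 differed by -1.81 for CBDL over both strains (SE 0.61, adjusted p = 0.204, limma).

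**Figure D3:**
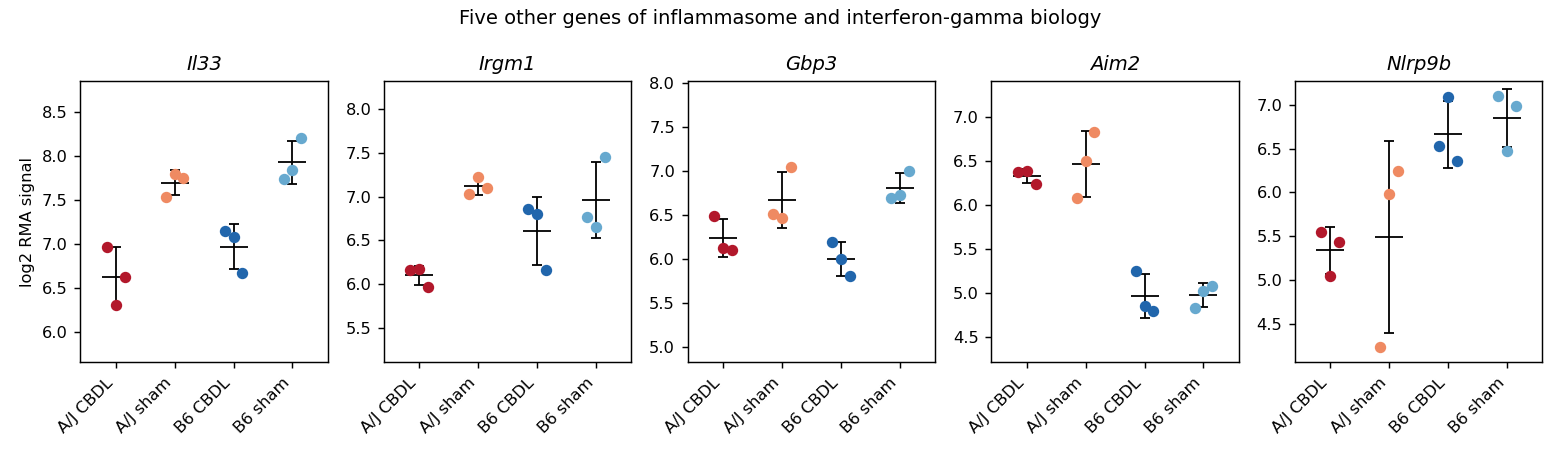
Log2 RMA signal (vertical axis, the same span in every panel) of 5 genes from the pathway lists in A/J CBDL, A/J sham, B6 CBDL and B6 sham jejunum. Points are arrays, and bars are the mean and SD of 3 arrays; Il33 is lower in every CBDL array, and Aim2 is higher in every A/J array.

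Chromosomal neighbours were read to see whether genes beside the Naip cluster also differed between the strains. Of 10 listed neighbours on chromosome 13, 9 were measured, with at most 6 protein-coding genes between a neighbour and the cluster. Gtf2h2, directly beside the cluster, was not measured. In CBDL mice 2 of 9 were called, both lower in A/J, beside 1.78% of all probe sets called in either direction. Mrps27, a mitochondrial ribosomal protein gene, differed by -0.67 (SE 0.14, adjusted p = 0.0436, limma) and Mccc2, a carboxylase subunit gene of leucine breakdown, by -0.41 (SE 0.09, adjusted p = 0.0465). Averaged over operations 1 of 9 was called (4.63% of all), namely Mrps27, at -0.46 (SE 0.10, adjusted p = 0.0291, limma). Marveld2, a tight junction gene, stood at 0.41 (SE 0.10, adjusted p = 0.0506). In sham mice 0 of 9 were called (1.87% of all). The list median averaged over operations was -0.15, beside -0.26, -0.47 and -0.82 for the tested Naip2, Naip5 and Naip6 probe sets. Among 8 neighbours of Casp1 and Casp4 on chromosome 9, 0 were called in any comparison, where 0.0366% to 4.63% of all probe sets were called. Their list median for CBDL over both strains was -0.07.

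The genes with array patterns most like the called members were found among 21780 probe sets with 1 gene name, by Pearson's r over the 12 arrays, which share their strain and operation groups. For Casp1 they were Gm11437 (0.929), Erap1 (0.923) and Tinag (0.922). Those nearest to Naip6 were Blvra (0.957), Asah1 (0.955) and Ppp1r21 (0.953). Pycard was closest to Ybx3 (0.969), Acad9 (0.961) and Mlec (0.958). No p is given, as the genes were chosen for their likeness.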

How the data were processed

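Total RNA of mouse jejunum from 4 groups of 3 arrays was measured on Affymetrix arrays. The authors deposited log2 values of 35556 probe sets. The submitters' processing notes name RMA and the Affymetrix Expression Console, with versions not given in the sources used here, whereas the paper's methods name GCRMA and another Affymetrix design. Values ran from 1.57 to 14.4 and were used as deposited.

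One mean per group was fitted to the 12 arrays with limma 3.58.1 (R 4.3.3) and empirical Bayes variances, and p was adjusted by Benjamini-Hochberg over all probe sets in each of 7 comparisons. The script was tested on simulated data. Nothing states that replicates came from separate litters or cages, and p-values therefore cover only the variation among these 12 samples; 3 arrays per group limit the precision.

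The platform table gives 1 name for 21789 probe sets, several for 1621 and none for 12146. Named genes were every member probe set; in each list, represented by the brightest probe set of a gene, the called genes or else the 2 with the smallest adjusted p, of which the text gives a choice; and the 3 probe sets most like each called member. Members and lists were chosen with earlier results of these data known. RefSeq promoter windows (GRCm38.p6) were aligned in pairs with Biopython 1.88 (match 1, mismatch -1, gap opening -3).

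Alternatives were the arrays of the compared groups alone, removal of the 30% dimmest probe sets, quantile normalization, subtraction of each array's median, a trend and robust prior, array weights, only probe sets with a gene name, a replicate block, and leaving out each array in turn. Same-numbered arrays of different groups had deviations that correlated from -0.312 to 0.358 over 18 pairs, with 2 over 0.1, so replicate numbers were not taken as pairs.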

Additional observations from a re-analysis of the deposited data

How the results depend on the processing

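With 3 arrays per group, calls near the threshold turned on single arrays. The counts of called members for CBDL over both strains, for B6 CBDL against B6 sham and for the interaction were the same under every alternative. For A/J CBDL against A/J sham the count was 1, and it was 0 with only the arrays of the groups compared, and 0 to 1 when each array was left out. For A/J sham against B6 sham it was 0, and 1 with array weights (Il18) and 1 with only named probe sets (Naip6), and 0 to 1 with each array left out (1 without A/J sham replicate 3). For A/J CBDL against B6 CBDL it was 1, and 2 with only named probe sets, and 0 to 1 with each array left out; the 1 without B6 CBDL replicate 3 was Pycard in place of Naip6. For A/J against B6 over both operations it was 2, and 5 with array weights (Naip2 with adjusted p = 0.0376, Nlrc4 with 0.0469 and Il18 with 0.0216 beside Naip6 and Pycard), 4 with only named probe sets, 1 with each array's median subtracted, and 1 to 2 with each array left out. Testing only named probe sets lowers the number tested; the cause of the other moves was not tested.

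With the replicate number as a block, the count was 0 for A/J CBDL against A/J sham (Casp1 adjusted p = 0.0711), 0 for A/J CBDL against B6 CBDL (Naip6 adjusted p = 0.0686) and 1 for A/J against B6 over both operations (Pycard adjusted p = 0.0520). The block changed no other call. The labels give no pairing beyond the numbers.

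Differences that changed sign were all uncalled. Casp1 in A/J sham against B6 sham was -0.01, and 0.0674 with each array's median subtracted, 0.0076 with quantile normalization, and -0.0974 to 0.0906 with each array left out. Il18 in B6 CBDL against B6 sham was 0.00, and -0.17 with array weights, -0.0031 with quantile normalization, and -0.30 to 0.30 with each array left out. With each array left out, CBDL minus sham in A/J ran from -0.25 to 0.11 for Naip6, from -0.26 to 0.0024 for Nlrc4 and from -0.12 to 0.28 for Il18. In B6 it ran from -0.0125 to 0.0910 for Naip2, from -0.0089 to 0.21 for Naip6, from -0.14 to 0.0184 for Nlrc4 and from -0.0767 to 0.36 for Pycard. A/J CBDL minus B6 CBDL ran from -0.0736 to 0.15 for Gsdmd. Of the values of the 9 tested probe sets under an alternative, 926 kept direction and side of the threshold, 28 lost a call, 10 gained one and 22 changed sign.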
